A study of Homo sapiens with 4 samples.

Results

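The EGFR family is a set of receptor tyrosine kinases and the ligands that bind them, and 10 of its genes were followed here among the 22439 genes named on the arrays. They were taken by gene symbol, with earlier results of these data known. The members are the 4 receptors EGFR, ERBB2, ERBB3 and ERBB4 and the 6 ligands AREG, EREG, HBEGF, TGFA, NRG1 and BTC. Every probe listed under a RefSeq transcript of a member was taken. Gene expression was measured on 4 one-color Agilent arrays, each of which read the Cy3-labeled RNA of 1 sample of cells labelled A549, an established cell line of human lung adenocarcinoma. There was 1 array of cells transfected with miR-486-5p, the guide strand of the pre-miR-486 hairpin, and 1 of cells transfected with miR-486-3p, its passenger strand. The control group was 2 mock arrays of cells that received the transfection reagent (Lipofectamine RNAiMAX) without a miRNA, so that no array of a control miRNA was in the comparison and an effect of any transfected small RNA cannot be told apart from that of the strand itself. The study asked which genes each strand controls in these cells, and for the family the questions are which receptors and ligands differed from mock after each strand, and whether the strands differed from each other.

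EGFR, ERBB2, ERBB3 and ERBB4 span the cell membrane, and a ligand bound outside leads them to pair and to phosphorylate each other inside. EGFR binds AREG, EREG, HBEGF, TGFA and BTC, ERBB4 binds NRG1 and also HBEGF, EREG and BTC, and ERBB3 binds NRG1. ERBB2 has no known ligand of its own and ERBB3 has little kinase activity, so these receptors act mainly in pairs with other members. The ligands are made as membrane-bound precursors and released by proteases, and the receptors signal through the RAS-MAPK and PI3K-AKT routes. EGFR and ERBB2 are mutated or amplified in a part of lung adenocarcinomas and are targets of drugs in use.

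A value below is the log2 signal of a probe minus the log2 of the 75th percentile of its array, and a difference subtracts the mean of both mock arrays from a transfected array on that scale. Probes differ in how brightly they bind, so differences were taken between arrays and never between probes or genes. Where a probe is called bright or dim, or signal is summed over a list, this describes the reading. It does not measure 1 gene against another. "Well above background" is the call of the scanner software that a spot is brighter than its surroundings. The 75th percentile of the signal was 114 on each mock array, 105 with miR-486-5p but 93.1 with miR-486-3p, and 30690 to 31516 of 58201 probes were well above background, with no saturated spot. Over 28246 probes that were well above background everywhere, the mock arrays differed from each other with an SD of 0.196. Over the same probes the differences from mock had SDs of 0.522 with miR-486-5p, and 0.975 with miR-486-3p. All arrays shared 1 slide and 1 scan.

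The label of the cells was checked against marker genes, and part of it did not hold. Of 6 epithelial markers, KRT7, KRT8, KRT18 and KRT19 had a probe well above background on all 4 arrays, EPCAM was so on 2 arrays and CDH1, the epithelial cadherin, on none. Of 5 genes that A549 cells are known to express strongly, 4 had such a probe on all 4 arrays, but AKR1B10 was not well above background on either mock array. In mock, NQO1 read 0.22 and 0.18, but the other such probes were dim. ALDH1A1 read -3.50 on both mock arrays, ALDH3A1 -3.31 and -2.63, and the AKR1C1 probes between -2.61 and -2.05. The dimmest signal well above background was -4.73 on either mock array. The second probes of ALDH1A1 and ALDH3A1 were not well above background on either. After these values were seen, CDKN2A, MTAP, VIM and CDH2 were examined as well. Every probe of VIM (8.15 to 9.02) and of CDH2 (-0.33 to 2.16) was well above background on all 4 arrays. CDKN2A and MTAP are neighbouring genes of a locus known to be deleted in A549. Both CDKN2A probes and all 3 MTAP probes were well above background on the 4 arrays, and the brighter CDKN2A probe read 6.03 and 5.98 in mock, against 5.56 (miR-486-5p) and 3.89 (miR-486-3p). CDKN2A and MTAP signal goes against the A549 label, so the cells are called cells labelled A549, and no other identity is given to them here. Of 5 alveolar markers, SFTPC and NAPSA had a probe well above background on all 4 arrays, NKX2-1 on 2 arrays, and SFTPA1 and SFTPB on none. SFTPA1, SFTPB and SFTPC encode surfactant proteins. Blood cell markers had such a probe on all 4 arrays for 4 of 5 genes (LYZ had no named probe), endothelial markers for 2 of 4 and fibroblast markers for 2 of 5. The summed blood cell signal, in multiples of the 75th percentile, was 1.23 (miR-486-5p), 1.65 (miR-486-3p), 1.25 (mock 1) and 1.26 (mock 2), while that of the epithelial list was 171, 173, 230 and 228 in the same order. Their part in the results below was not tested.

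Stretches around 1 listed start of EGFR and 1 of ERBB2 are shown because a probe of each of these receptors was lower than mock after miR-486-3p. The stretches run from 250 bases before to 50 bases after a transcription start, 5′ to 3′ on the gene's strand, from RefSeq on GRCh38.p14, at chr7:55018767-55019066 on the plus strand for the upstream EGFR start and chr17:39687844-39688143 on the plus strand for ERBB2. Capitals mark matches, on either strand, to the GC box GGGCGG, the AP-1 site TGANTCA, the cyclic AMP response element TGACGTCA or the TATA box TATAAA, whose letters may overlap.
EGFR: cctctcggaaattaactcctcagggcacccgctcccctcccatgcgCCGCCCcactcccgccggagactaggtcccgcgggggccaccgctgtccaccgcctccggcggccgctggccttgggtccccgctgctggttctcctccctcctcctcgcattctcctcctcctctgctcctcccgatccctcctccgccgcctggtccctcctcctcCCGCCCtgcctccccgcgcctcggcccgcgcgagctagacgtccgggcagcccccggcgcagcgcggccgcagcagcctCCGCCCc
ERBB2: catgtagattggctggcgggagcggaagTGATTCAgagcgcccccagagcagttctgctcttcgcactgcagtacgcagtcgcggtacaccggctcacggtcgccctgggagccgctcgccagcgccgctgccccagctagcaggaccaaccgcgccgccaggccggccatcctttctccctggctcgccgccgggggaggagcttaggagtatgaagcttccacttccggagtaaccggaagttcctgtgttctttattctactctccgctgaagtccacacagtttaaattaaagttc
The EGFR stretch was 75.3% G and C, above 91.0% of the 35116 promoters in the table, whose median was 58.7%, and it held 3 GC boxes and no TATA box. The second EGFR start in the table, downstream of it, was 42.0% G and C and held 2 AP-1 matches, 2 TATA boxes and no GC box. The ERBB2 stretch, from the only start of this gene in the table, was 60.7% G and C and held 1 AP-1 match and no GC box. Any other start of ERBB2 was not looked at, and which start these cells use was not tested. The matches are those of this stretch alone and do not describe every promoter of ERBB2. Over all promoters of this length, 45.0% held a GC box, 7.71% an AP-1 site, 1.85% a cyclic AMP response element and 11.5% a TATA box. The table held 10 starts of 8 members and none of ERBB3 or NRG1. NRG1, which was also lower after miR-486-3p, is not shown for that reason. HBEGF, whose start lies on chromosome 5, had 5 GC boxes. On chromosome 4, where EREG, AREG and BTC are neighbours, the AREG promoter held 1 cyclic AMP response element and 1 TATA box, and the EREG promoter 1 TATA box. These matches are letters in a window and say nothing of whether a factor binds.

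The family had 18 probes on the arrays, 9 of receptors and 9 of ligands, of which 10 were well above background on all 4 arrays, 5 on none and 3 on some. A probe was tested with limma if it was well above background on every array of at least 1 group, which left 12 probes of 8 genes, with AREG and EREG outside the test. BTC passed this filter through the miR-486-3p array alone, where it is high, so its place among the tested probes is no sign of a difference. After miR-486-5p, limma called 2 member probes lower and 0 higher at an adjusted p of 0.05, while 6 had an unadjusted p under 0.05. Over all 33498 probes tested, 4.49% were called lower and 3.07% higher in that comparison. After miR-486-3p the member counts were 4 lower and 1 higher, where the shares of all probes were 24.2% and 28.1%. Between the strands, 5 member probes were lower after miR-486-3p than after miR-486-5p and 2 were higher, against 21.4% and 22.0% of all probes. The 2 probes called after miR-486-5p are both of NRG1, and with 12 probes nothing particular to the family as a set is read from these counts. The comparisons with mock share the mock arrays, and 1 residual degree of freedom, that between the mock arrays, stands behind every test. The fit takes the mock spread to hold for the transfected arrays too.

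**Figure D1:**
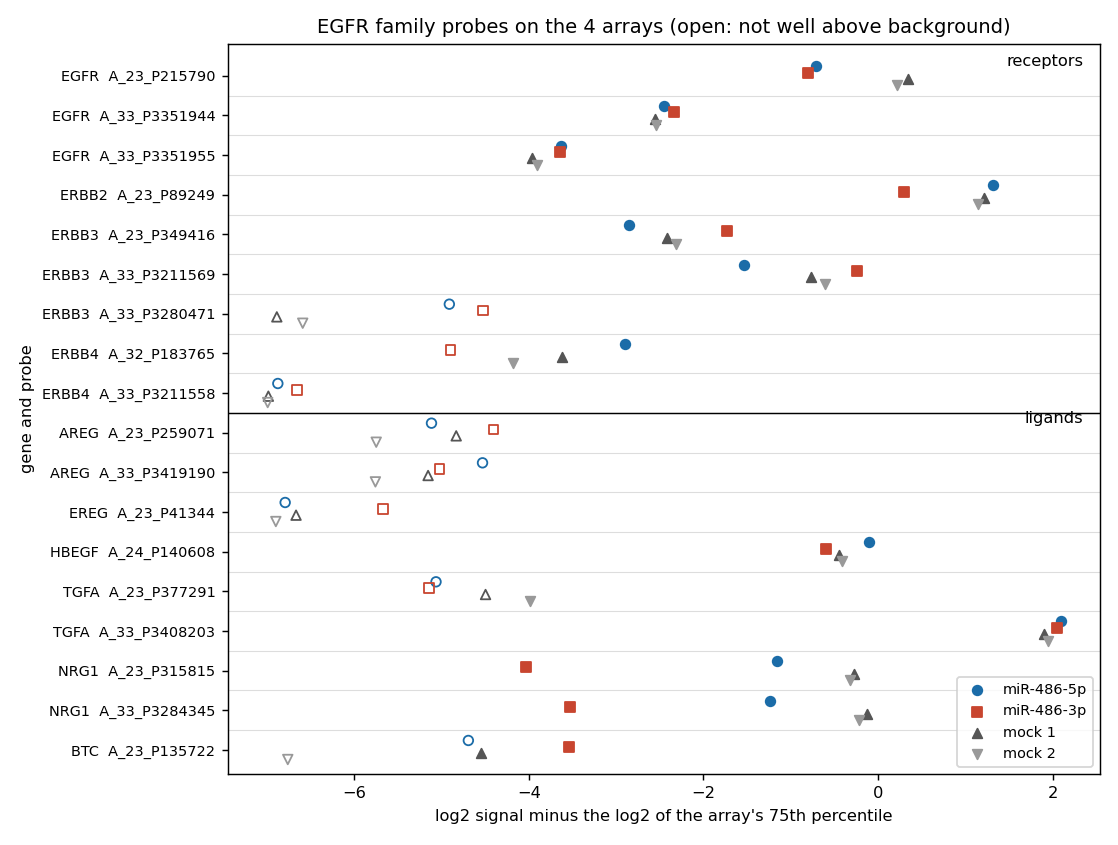
Values of the 18 probes of the EGFR family (rows) on the 4 arrays, as log2 signal minus the log2 of the array's 75th percentile; filled symbols were well above background on that array and open symbols were not. NRG1 after miR-486-3p lay at -4.03 and -3.53, far left of the mock arrays, and rows may not be compared with each other because probes bind with different strength.

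On the probe of its full-length transcript EGFR fell after miR-486-3p, and the value after miR-486-5p was nearly as low but just missed the threshold. The probes listed under its short transcripts, which encode truncated, soluble forms of the receptor, were not called. The full-length probe, A_23_P215790, read -0.71 (miR-486-5p) and -0.81 (miR-486-3p), against 0.34 and 0.22 on the mock arrays. Both transfected arrays lay below both mock arrays, at 50.5% and 47.1% of the mock signal. The difference after miR-486-3p was -1.09 (SE 0.110, limma adjusted p = 0.0136). After miR-486-5p the difference was -0.99 (SE 0.110), and its adjusted p of 0.0503 was just outside the threshold. The strands themselves differed by -0.10, with a 95% interval from -0.53 to 0.33 (adjusted p = 0.564). In RNA of whole cultures, fewer cells with a transcript and less of it per cell cannot be told apart.

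The probes of the short EGFR transcripts were dimmer and were not seen to fall. A_33_P3351944 read -2.45 (miR-486-5p) and -2.34 (miR-486-3p), against -2.56 and -2.55 on the mock arrays. A_33_P3351955 read -3.64 on both transfected arrays, against -3.96 and -3.91. All 4 differences were above 0, between 0.10 and 0.30, and none was called, with adjusted p from 0.0888 to 0.454. A_33_P3351955 lay close to the dimmest signal well above background, which was -4.39 to -4.73 on the arrays. After miR-486-3p the ERBB4 probe A_33_P3211558, not well above background on any array, read 0.33 above either mock array. The part of background in the differences of the short-transcript probes was not tested. The sign after miR-486-3p depends on the scaling, since the short-transcript differences were -0.16 and -0.08 when arrays were scaled to their medians. The mean over the 3 probes was -0.19 after either strand and hides the disagreement, as the probes spanned 1.29 (miR-486-5p) and 1.38 (miR-486-3p). Of 3901 genes with several probes in use, 2.92% and 10.2% had a wider range, and the median ranges were 0.257 and 0.340. EGFR-AS1, the antisense gene at this locus, was not well above background on any array.

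ERBB2, the receptor without a ligand, fell after miR-486-3p, and the strands differed from each other. Its probe, A_23_P89249, read 0.29 with miR-486-3p, 1.31 with miR-486-5p and 1.21 and 1.14 in mock. The miR-486-3p array lay below the other 3, at 54.2% of the mock signal. The difference from mock was -0.88 (SE 0.094, adjusted p = 0.0146), and that from the miR-486-5p array was -1.02 (SE 0.109, adjusted p = 0.0186). After miR-486-5p the difference from mock was 0.14, with a 95% interval from -0.18 to 0.45 (adjusted p = 0.372).

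ERBB3, the neuregulin receptor with little kinase activity, stood on opposite sides of mock after the strands. The full-length probe, A_23_P349416, read -2.85 (miR-486-5p) and -1.73 (miR-486-3p), against -2.42 and -2.32 on the mock arrays. The probe listed under the short, secreted form, A_33_P3211569, read -1.54 and -0.24, against -0.77 and -0.61. On each probe the miR-486-5p array was lowest and the miR-486-3p array highest. The full-length probe was 1.56-fold higher after miR-486-3p than in mock (0.64, SE 0.103, adjusted p = 0.0270), and the short-form probe differed by 0.44 (adjusted p = 0.0698). After miR-486-5p the values lay on the other side, at -0.48 (adjusted p = 0.0846) and -0.85 (adjusted p = 0.0568), neither of them called. When arrays were scaled to their medians, the differences after miR-486-3p were 0.27 and 0.07 and neither was called. The difference between the strands passed the test on both probes, at 1.12 (adjusted p = 0.0183) and 1.30 (adjusted p = 0.0189). The third ERBB3 probe was not well above background on any array.

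ERBB4, which binds neuregulins and several EGFR ligands, was dim. The probe A_32_P183765 read -2.90 after miR-486-5p and -3.62 and -4.18 in mock, while with miR-486-3p it was not well above background, with a reading of -4.90. The mock arrays differed by 0.56, more than for any other receptor probe in the test, and the differences from mock, 1.00 after miR-486-5p (SE 0.306, adjusted p = 0.135) and -0.99 after miR-486-3p (adjusted p = 0.0864), were not called. As a bound, which was not tested, ERBB4 was at least 2.80-fold higher after miR-486-5p than after miR-486-3p. The limma difference of miR-486-3p from miR-486-5p, with the dim reading taken as measured, was -1.99 (adjusted p = 0.0375). This call was made in 4 of 7 fits and was lost under normexp, another background correction, where the difference shrank to -0.12 (adjusted p = 0.225), with the authors' values (adjusted p = 0.0584) and with no filter on dim probes (adjusted p = 0.120). The other ERBB4 probe was not well above background on any array.

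**Figure D2:**
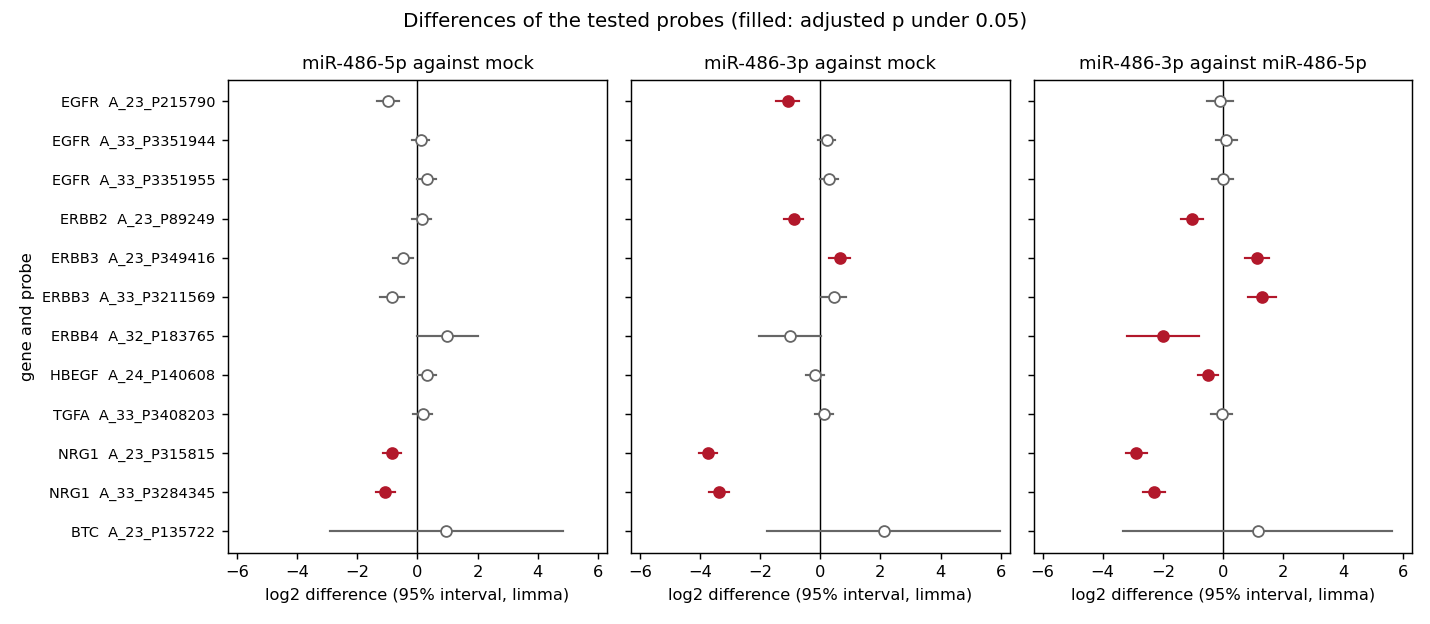
Log2 differences of the 12 tested probes (rows) with their 95% intervals from limma, for each strand against the 2 mock arrays and for miR-486-3p against miR-486-5p; filled red points had an adjusted p under 0.05. NRG1 lay below 0 in all 3 panels, ERBB3 changed sides between the strands, and the BTC interval after miR-486-3p ran from -1.77 to 5.99.

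Among the ligands, NRG1, which binds ERBB3 and ERBB4, was lower after both strands and most of all after miR-486-3p. The probe A_23_P315815 read -1.15 (miR-486-5p) and -4.03 (miR-486-3p), against -0.27 and -0.32 on the mock arrays. A_33_P3284345 read -1.24 and -3.53, against -0.13 and -0.21. On both probes the order was the same, with the mock arrays close together, miR-486-5p below them and miR-486-3p lowest, and no array of a transfected group reached a mock array. In miR-486-3p cells the differences reached -3.74 (SE 0.091) and -3.36 (SE 0.098), both with an adjusted p of 0.00762, which left 7.50% and 9.76% of the mock signal. After miR-486-5p the differences were -0.86 (adjusted p = 0.0492) and -1.06 (adjusted p = 0.0475), or 55.1% and 47.8% of the mock signal. The difference of the miR-486-3p array from the miR-486-5p array was -2.88 and -2.29 on these probes (adjusted p = 0.0119 for each). The size depends on how background was corrected: with normexp in place of the scanner's correction, those after miR-486-3p came to -1.27 and -1.22, with the direction and the call kept on both probes.

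The intronic transcript NRG1-IT1, which lies within NRG1, was named after its values were seen. It was well above background on 3 arrays, at -4.15 after miR-486-5p and -3.78 and -3.87 on the mock arrays, but not after miR-486-3p. As a bound, which was not tested, it was at least 1.48-fold lower after miR-486-3p. The limma difference, with the dim reading of -5.84 taken as measured, was -2.01 (adjusted p = 0.00762). Its difference after miR-486-5p was -0.33 (adjusted p = 0.129). NRG1-IT3 and TGFA-IT1 were not well above background on any array.

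HBEGF, a ligand of EGFR and ERBB4 that binds heparin, read -0.10 (miR-486-5p) and -0.60 (miR-486-3p), against -0.44 and -0.41 on the mock arrays. The mock arrays lay between the transfected arrays and 0.03 apart. Neither strand was called against mock, with differences of 0.33 (adjusted p = 0.115) and -0.17 (adjusted p = 0.209). The strands differed from each other by -0.50 (SE 0.103, adjusted p = 0.0482). The call was made in 6 of 8 fits. It was lost under normexp with its offset, at -0.15 (adjusted p = 0.124), and with no filter on dim probes (adjusted p = 0.0623).

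TGFA, the ligand of EGFR alone, was bright on A_33_P3408203 and read 2.09 (miR-486-5p), 2.05 (miR-486-3p) and 1.90 and 1.95 on the mock arrays. The difference was 0.17 after miR-486-5p, with a 95% interval from -0.13 to 0.47, and 0.12 after miR-486-3p, with an interval from -0.18 to 0.42. The strands differed by -0.05, with an interval from -0.40 to 0.30. Changes within these intervals could not be seen with these arrays. The second TGFA probe was well above background on mock 2 alone and was not used.

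BTC, which binds EGFR and ERBB4, had 1 dim probe that was well above background after miR-486-3p, at -3.54, and on mock 1, at -4.55. It was not so after miR-486-5p, at -4.69, or on mock 2, at -6.76. The mock arrays lay 2.21 apart, and the difference of 2.11 after miR-486-3p was within that spread (SE 1.158, adjusted p = 0.223). Taken against a single mock array, the BTC difference was 1.19 without mock 1 and 1.01 without mock 2, and it was 0.35 under normexp. Both probes of AREG, an EGFR ligand of low affinity, and the 1 probe of EREG, a ligand of EGFR and ERBB4, were not well above background on any array, which bounds their signal and does not show that the genes were silent.

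Counted by gene, with the mean over a gene's probes in use and a limit of 0.5 on the log2 scale, 7 members could be measured with miR-486-5p, against 8 with miR-486-3p. After miR-486-5p, ERBB3 (-0.67) and NRG1 (-0.96) lay below the limit and ERBB4 (1.00) above it, where 15.9% of all genes lay below and 13.8% above. After miR-486-3p, ERBB2 (-0.88) and NRG1 (-3.55) lay below and ERBB3 (0.54) and BTC above, where 27.2% of all genes lay below and 30.4% above. BTC is in this count only through the miR-486-3p array, so that it is counted at all is set by the filter. Its difference of 2.11 is taken against a mock mean that includes a reading not well above background. That difference was not called by limma (adjusted p = 0.223). Over all genes the median was 0.03 with miR-486-5p, against 0.06 with miR-486-3p. The ERBB4 value after miR-486-3p was a bound, -0.49, which became -0.77 without mock 2 and -0.21 without mock 1, and ERBB3 became 0.48 without mock 1. This count carries no test, and EGFR falls outside it because its probes disagree.

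The genes around the receptors were read as 6 lists, from further ligands to genes that ERK signalling induces, and 49 of their 56 genes were measured. With miR-486-5p, 1 of these genes had a probe called lower and 3 a probe called higher, and the counts with miR-486-3p were 21 and 18. Of 66 probes tested, 1 was lower and 3 were higher with miR-486-5p, against 24 and 22 with miR-486-3p. The shares over all probes tested were 4.49% lower and 3.07% higher for miR-486-5p, and 24.2% and 28.1% for miR-486-3p, so a gap between the strands is also found over the whole array. The counts list by list below are to be read against the same shares, and nothing particular to a list is drawn from them. The median difference over the measured genes was 0.05 (miR-486-5p) and -0.15 (miR-486-3p), beside 0.03 and 0.06 over all genes. Of the other ligands, NRG2 alone was measured and EGF, EPGN, NRG3 and NRG4 were not. NRG2, a neuregulin that binds ERBB3 and ERBB4, read 0.47 (miR-486-5p) and 1.40 (miR-486-3p), against 1.58 and 1.49 on the mock arrays. It fell after miR-486-5p by 1.07 (adjusted p = 0.0475), and its difference after miR-486-3p was -0.14 (adjusted p = 0.309).

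The 4 genes of ligand release were all measured, with none called for miR-486-5p, and 1 lower and 3 higher for miR-486-3p (1 and 4 of 5 probes, where 24.2% and 28.1% of all probes were called). ADAM17, the protease that frees most of these ligands, and ADAM10 were among the 3 higher, with differences of 0.45 and 0.65. RHBDF1 and RHBDF2 are inactive rhomboid proteins that help ADAM17 reach the surface. RHBDF1 read 0.36 (miR-486-5p) and 1.04 (miR-486-3p), against -1.02 and -0.69 on the mock arrays, and rose by 1.89 with miR-486-3p (SE 0.194, adjusted p = 0.0138). RHBDF2 moved the other way, with a difference of -1.19 after miR-486-3p (adjusted p = 0.0106).

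Of the genes that restrain the receptors, 6 of 8 were measured, with 1 called higher and none lower for miR-486-5p, and 3 lower and 2 higher for miR-486-3p. By probe these were 3 lower and 3 higher of 7, where all probes gave 24.2% and 28.1%. ERRFI1, an inhibitor that binds the EGFR kinase domain and is induced by EGFR signalling, read 4.42 with miR-486-3p, 6.24 with miR-486-5p and 6.69 and 6.60 in mock. Its difference after miR-486-3p was -2.23 (SE 0.099, adjusted p = 0.00762). CBL and CBLB are ubiquitin ligases that send EGFR to degradation, and they went apart after miR-486-3p, with -1.27 for CBL (adjusted p = 0.00991) and 2.08 for the CBLB probe measured on all 4 arrays (adjusted p = 0.00762). LRIG1, a membrane protein that lowers receptor levels, was the other gene called higher, at 0.79. RNF41, a ubiquitin ligase of ERBB3, read 1.17 (miR-486-5p), -1.43 (miR-486-3p) and -0.42 and -0.34 on the mock arrays. It rose by 1.55 with miR-486-5p (adjusted p = 0.0475) and fell by 1.05 with miR-486-3p (adjusted p = 0.0122).

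In the RAS-MAPK list 15 of 16 genes were measured, of which NRAS alone was called after miR-486-5p. With miR-486-3p, 7 had a probe called lower, MAPK3 and NRAS among them, and 5 a probe called higher, GRB2 among them, with ARAF in both counts. By probe these were 9 lower and 5 higher of 22, beside the 24.2% and 28.1% of all probes. The kinase MAPK3 had a difference of -1.67 after miR-486-3p (adjusted p = 0.00834). GRB2, the adaptor that links the receptors to RAS, differed by 0.89 with miR-486-5p (adjusted p = 0.0503) and 0.69 with miR-486-3p (adjusted p = 0.0225). NRAS, a RAS GTPase, had differences of 1.09 (adjusted p = 0.0475) and 0.73 (adjusted p = 0.0589) with miR-486-5p, and of -1.09 (adjusted p = 0.0117) and -0.55 (adjusted p = 0.0389) with miR-486-3p.

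In the PI3K-AKT, PLC and STAT list all 10 genes were measured, with AKT2 alone called after miR-486-5p. With miR-486-3p, 3 had a probe called lower, PIK3R2 among them, and 5 a probe called higher, STAT3 among them, with AKT2 in both counts. By probe these were 4 lower and 6 higher of 16, beside the same 24.2% and 28.1%. PIK3R2, a regulatory subunit of PI3K, differed by -1.56 with miR-486-3p (adjusted p = 0.00821). The probes of AKT2 disagreed after miR-486-3p, with differences of -0.76, 0.77 and -0.61, all of them called. STAT3 differed by 0.64 and 0.51 after miR-486-5p, and by 0.57 and 0.30 after miR-486-3p.

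Of the 13 genes induced by ERK signalling, all were measured, none was called with miR-486-5p, and 7 were lower and 3 higher with miR-486-3p, where the median difference was -0.59, beside 0.06 over all genes. By probe, 7 of 15 were lower and 4 higher, where 24.2% and 28.1% of all probes were. The count of higher probes is near the share over the array, and that of lower probes is above it. The list was chosen with earlier results known and carries no test, so nothing is read from either count. The lower genes were DUSP5, DUSP6, SPRY2, SPRY4, ETV4, ETV5 and FOSL1. FOSL1, an AP-1 transcription factor, read 2.46 with miR-486-3p, 4.88 with miR-486-5p and 4.29 and 4.36 in mock. DUSP5, a phosphatase that acts on ERK, read -0.01, 1.89, 1.66 and 1.74 in the same order. Their differences after miR-486-3p were -1.86 (adjusted p = 0.00774) and -1.71 (adjusted p = 0.00819). SPRED2, a RAS pathway inhibitor, differed by 0.65 after miR-486-5p (adjusted p = 0.0617) and by -0.41 after miR-486-3p (adjusted p = 0.0611). The genes higher after miR-486-3p were PHLDA1, IER3 and CCND1, and CCND1 encodes cyclin D1, which drives cells through G1. ERRFI1 of the restraint list is also induced by ERK, so the lists are not independent of each other in what they read.

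**Figure D3:**
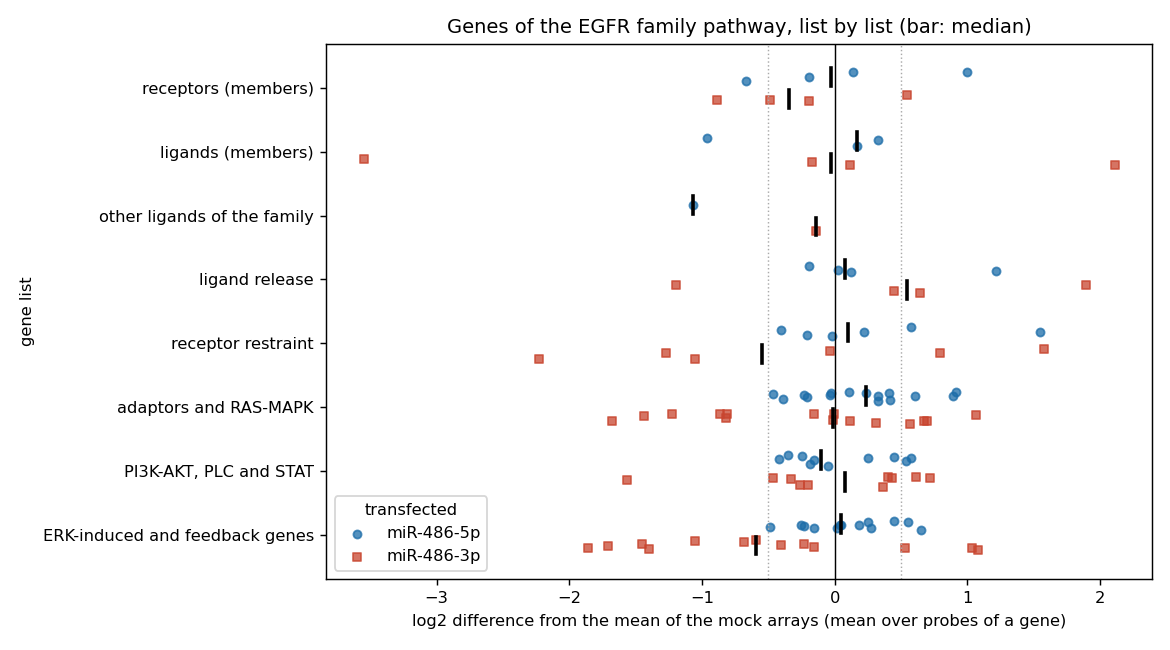
Log2 differences from mock (x axis) of the measured genes in the receptor and ligand groups and the 6 further lists (rows), 1 point per gene, after miR-486-5p (blue circles) and miR-486-3p (red squares); black bars are medians and dotted lines mark -0.5 and 0.5. The points of miR-486-3p spread wider than those of miR-486-5p in most rows, and the median of the ERK-induced genes after miR-486-3p was -0.59.

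The calls of the members depended in part on the settings. EGFR, ERBB2 and both NRG1 probes were called lower after miR-486-3p in 8 of 9 fits, all but the methods' t-test. After miR-486-5p the full-length EGFR probe passed the threshold in 5 of 9 fits and each NRG1 probe in 6 of 9, with the direction below 0 in all. The full-length ERBB3 probe was above 0 after miR-486-3p in all 9 fits and called in 6.

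**Figure D4:**
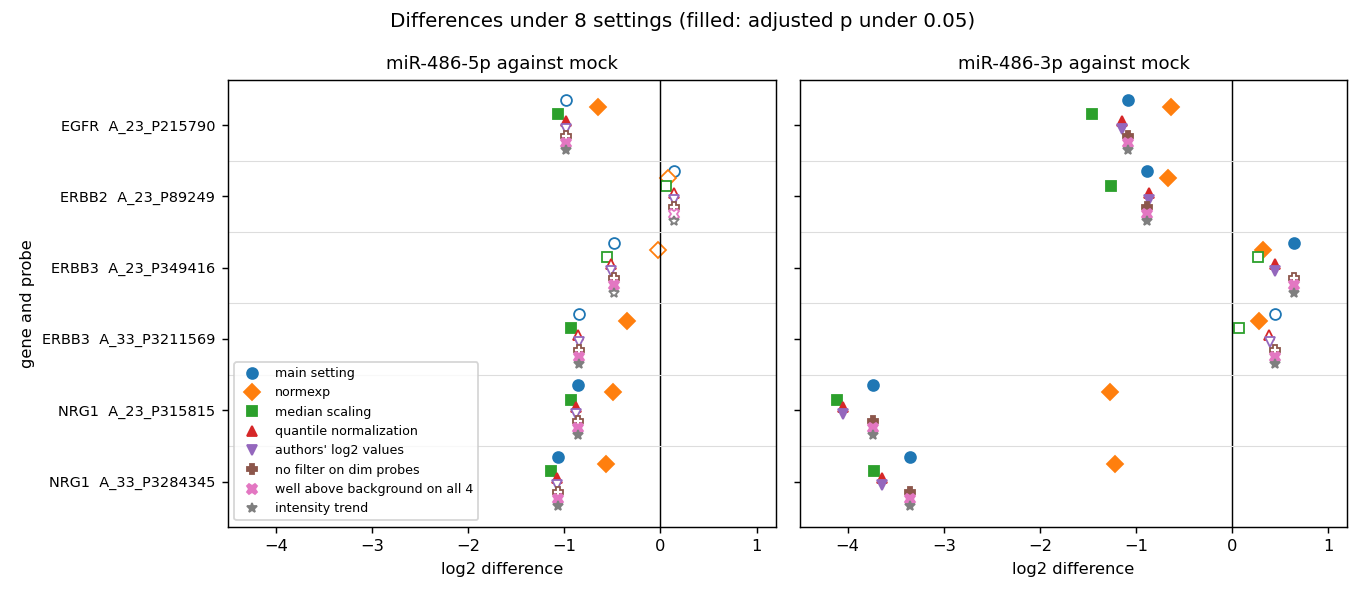
Log2 differences from mock (x axis) of 6 probes of EGFR, ERBB2, ERBB3 and NRG1 (rows) under 8 settings (colors and symbols); filled symbols had a limma adjusted p under 0.05. Differences of NRG1 after miR-486-3p shrank to -1.27 and -1.22 under normexp, and median scaling moved all differences after miR-486-3p to the left.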

How the data were processed

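Gene expression of 4 samples was measured on 1-color Agilent arrays. The authors deposited the output of Agilent Feature Extraction for each array, that is, a linear, background-corrected intensity per spot. They also deposited log2 values of these arrays, with quartiles equal on all 4, as quantile normalization gives. Their column medians were each 2.76, and their scale and direction followed the scanner signal. The annotation build of the probes was hg19, per the file headers.

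Outlier spots (50 to 72 per array) were dropped, the log2 of the 75th percentile was subtracted on every array, and spots of a probe were averaged. Of 33080 probes with a RefSeq accession, 31104 were named through a table of GRCh38.p14, used for names alone. limma 3.58.1 (R 4.3.3) was fitted to 33498 probes in 3 groups, with Benjamini-Hochberg adjustment at 0.05, a prior of 1.75 degrees of freedom and a prior SD of 0.0893. It was tested on simulated data. Gene means used probes well above background on the transfected array or on each mock array, and a group not well above background was raised, where lower, to the dimmest such signal of its array, which makes the difference a bound.

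The members, the gene lists and the tests were chosen with earlier results of these data known. From each list, the 2 genes of largest difference per strand among those measured on all 4 arrays were named, with others where a small count needed it. The values of 2 listed genes are not reported here, although the counts include them. No source used here says that the mock arrays came from separate cultures, so p-values measure only the spread between these arrays, which may be technical. The number of arrays limits the precision. Alternatives were each mock array left out, normexp (offset 50), median and quantile scaling, the authors' log2 values, other filters on dim probes, other rules for several probes, an intensity trend, a limit of 1 and the methods' t-test.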

Additional observations from a re-analysis of the deposited data

Results flagged for a closer look

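In all, 5 probes of 4 members were singled out because the miR-486-3p and miR-486-5p arrays differed from each other beyond the threshold in limma while not both differing from mock in the same direction. As differences of miR-486-3p from miR-486-5p on the log2 scale, these were -1.02 for ERBB2 (adjusted p = 0.0186), 1.12 and 1.30 for the ERBB3 probes (adjusted p = 0.0183 and 0.0189), -1.99 for ERBB4 (adjusted p = 0.0375) and -0.50 for HBEGF (adjusted p = 0.0482). Each rests on 1 array per strand. The ERBB4 difference was -0.12 and the HBEGF difference -0.15 under normexp, and neither was then called. The calls of ERBB4 and HBEGF were also lost with no filter on dim probes, as was that of the short-form ERBB3 probe (adjusted p = 0.0556), and the ERBB4 call was lost with the authors' values. For ERBB4 the miR-486-3p array was not well above background, so that its value is dim signal and the fold of at least 2.80 is the bound.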

How the results depend on the processing

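No paired analysis was possible because there is only 1 array for either strand, with nothing to pair across groups. A slide block was not run, since all arrays lay on 1 slide. Leaving out a mock array leaves no residual degree of freedom, so those values carry no test. Without mock replicate 1, the TGFA gene means were -0.24 (miR-486-5p) and -0.15 (miR-486-3p), because its second probe then came into use. Median scaling moved the median of all genes after miR-486-3p from 0.06 to -0.32, and with it the probes called from 8113 lower and 9417 higher to 12734 and 6009. Between the strands the split went from 7169 and 7380 to 10766 and 5344. Dim probes (BTC, ERBB4 and the short EGFR transcripts) are limited by signal over background.

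Of 417 values recomputed, 305 kept their side of the threshold or moved by less than the spread, 55 moved, 22 gained and 19 lost significance, and 16 changed sign. The cause was not tested. After miR-486-5p, the member probes called lower (2) were 4 under normexp, median scaling and the intensity trend, and 5 for probes measured on all 4 arrays. They were 0 with the authors' values, with no filter and by the methods' t-test, where no probe of the array was called. Over all probes, 4.49% were called lower in the main fit. The shares were 17.5% under normexp, 10.2% under median scaling, 17.3% with the trend and 15.4% for probes measured on all 4 arrays. Member probes called higher (0) were 1 under normexp, where 21.5% of all probes were. The member counts are to be read against these shares. Where no probe was called, limma had an unadjusted p under 0.05 for 6 of 12 member probes with the authors' values and 8 of 18 with no filter, and the methods' t-test for 3 (miR-486-5p) and 4 (miR-486-3p). After miR-486-3p, the t-test called 0 lower (from 4) and 0 higher (from 1), and it called no probe of the array. Those higher were 5 under normexp, 0 under median scaling, and 2 both for probes measured on all 4 arrays and with the intensity trend. Of all probes, 48.2%, 17.9%, 32.3% and 33.9% were higher in these settings in turn, beside 28.1% in the main fit. Between the strands, those lower (5) were 3 under normexp and with no filter, and those higher (2) were 1 with no filter. Over all probes, those lower went from 21.4% to 24.7% under normexp and 8.51% with no filter. Those higher went from 22.0% to 9.76% with no filter.

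Member genes above 0.5 after miR-486-3p (2) were 0 under normexp, 1 under median scaling, quantile normalization, the authors' values, the brightest probe, a limit of 1 and probes measured on all 4 arrays, and 4 with no filter, with a range of 1 to 2 when 1 mock array was left out. Of all genes, 30.4% lay above in the main setting, 15.3% under normexp, 17.8% under median scaling and 14.8% at a limit of 1. In the other settings named, 26.9% to 30.3% did. Member genes below (2) were 5 under median scaling and 1 at a limit of 1. Over all genes the share below went from 27.2% to 41.7% and 14.1% in these settings. After miR-486-5p, those above (1) were 0 under normexp, for probes measured on all 4 arrays and at a limit of 1, and 3 with no filter. Those below (2) were 1 under normexp and with no filter, and 0 at a limit of 1. Of all genes, 13.8% lay above in the main setting and 4.57% under normexp. The share above was 12.5% for probes measured on all 4 arrays, 2.53% at a limit of 1 and 14.8% with no filter. The share below was 15.9% in the main setting, 8.22% under normexp, 13.7% with no filter and 4.61% at a limit of 1. In the pathway lists, genes above after miR-486-3p (13) were 7 under normexp, 5 under median scaling and 5 at a limit of 1. After miR-486-5p, genes above (10) were 4 under normexp and 2 at a limit of 1. Genes below (1) were 3 under median scaling, and 2 under quantile normalization, with the authors' values and with the brightest probe. Their range was 1 to 2 when 1 mock array was left out. The list counts are to be read against the same shares of all genes. After miR-486-5p, 19.1% lay below under median scaling, 16.3% under quantile normalization and with the authors' values, and 16.6% with the brightest probe.

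The changes of sign ended at small values. With no filter, which adds a dim probe, the ERBB3 gene mean after miR-486-5p was 0.16. Under normexp, ERBB4 after miR-486-3p was 0.074, and the EGFR difference between the strands was 0.016 on A_23_P215790 and 0.087 on A_33_P3351955. After miR-486-3p, A_33_P3351944 of EGFR was -0.16 under median scaling, -0.027 under quantile normalization and -0.03 with the authors' values, and A_33_P3351955 was -0.082, -0.10 and -0.105. Between the strands A_33_P3351944 was -0.19, -0.074 and -0.08 under the same settings. TGFA after miR-486-3p was -0.25 under median scaling, and between the strands 0.035 under quantile normalization and 0.04 with the authors' values.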
